A study of Mus musculus with 8 samples.

Results

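Transcripts of 9 complement genes were followed in the visual cortex of adult C57BL/6J mice after miR-29a was blocked. The genes were C1qa, C1qb, C1qc, C3 and C4b (components), C3ar1 and Itgam (receptors) and Serping1 and Cd55 (inhibitors). They were taken by symbol from a table of 24883 gene rows, but the list was chosen with earlier results of these data known. All 9 were in the table and all 9 were tested, because each averaged 0.5 FPKM or more across the 8 libraries, as did 13912 rows in all. FPKM counts the sequenced fragments of a gene relative to the length of its transcript and the size of the library. Each mouse had received an intracortical injection of an LNA oligonucleotide, a short strand of chemically locked nucleotides that pairs with a microRNA and blocks it, on postnatal day 122, and the cortex was taken on postnatal day 129, 7 days later. A scrambled oligonucleotide was given for the 4 control libraries and one complementary to miR-29a for the 4 others. Every mouse of both groups was therefore injected, and no uninjected cortex was measured here. Separate animals are not stated for the 4 samples of a group, so the p-values rest on the spread among samples, part of which may be technical.

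Complement is a cascade of proteins that tags surfaces for removal. In the classical pathway C1q, built from chains A, B and C, binds a target and activates the proteases C1r and C1s, which cut C4 and C2, and the enzyme so formed cuts C3. In the brain C1q is made mainly by microglia, whereas C4 and C3 RNA are found in astrocytes and other cells, especially after injury. Fragments of C3 on synapses are recognised by complement receptor 3, of which Itgam encodes a subunit, and this route is known for the removal of synapses in the developing visual system.

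Mature miR-29 sequences are shown because the treatment acts through pairing with them, and the bases that pair with targets, positions 2 to 8, are in capitals.
mmu-miR-29a-3p: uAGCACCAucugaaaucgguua
mmu-miR-29b-3p: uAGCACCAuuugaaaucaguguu
mmu-miR-29c-3p: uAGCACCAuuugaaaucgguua
The 3 family members share that seed, so TGGTGCT is the matching site for each of them (sequences from RefSeq, GRCm38.p6). No match to TGGTGCT was present in the longest annotated 3' UTR of any of the 9 complement genes, which ranged from 43 nt for C3 to 2685 nt for C3ar1. Among 19500 table rows with an annotated 3' UTR, 13.5% held at least 1 match. The UTRs of C1qa, C1qb and C1qc are short, at 237, 160 and 239 nt. Shorter or partial seed matches were not searched. A search of this kind also says nothing of sites elsewhere in a transcript or of effects through other genes.

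None of the 9 genes differed between groups after adjustment. Tested with limma on log2(FPKM + 0.1) and adjusted over all 13912 rows, 0 of 9 passed a threshold of 0.05, where 0.0144% of all rows passed (Bdh1 and Snora23, neither of them a complement gene, and named here after their values were seen). At an unadjusted p under 0.05, 2 of 9 were higher in anti-miR-29a libraries, C3 and C1qa, beside 7.54% of all rows. C3 averaged 0.400 FPKM in scrambled libraries and met the filter only through the treated ones, at 1.08 FPKM. Its place in this count and in those that follow is therefore partly set by the filter. The log2 difference was positive for 7 members and negative for Itgam and Cd55, and its median was 0.25, where the median of all tested rows was 0.026 and 56.6% of them were positive. In no member were the 2 groups of libraries separate, whereas 4.02% of all rows had every anti-miR-29a library above every scrambled one.

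Scrambled replicate 1 bore on this overlap. It was the highest scrambled library for 8 of the 9 members, all but Cd55, and it was the highest scrambled library for 22.8% of all tested rows. Without it, 5 members had every anti-miR-29a library above the 3 remaining scrambled ones (C1qa, C1qb, C1qc, C3 and Serping1), beside 6.21% of all rows. At an unadjusted p under 0.05 (limma), 6 members were then higher, these 5 and C4b, beside 7.32% of all rows. Leaving out another library did not raise this count. It was 0 without scrambled replicate 2, scrambled replicate 4 or anti-miR-29a replicate 2, and 1 or 2 without any of the others. Still 0 of 9 passed after adjustment by limma, where 0.00719% of all rows did, and the median difference of the members was 0.42. The 3 C1q genes are neighbours and varied together, so they do not count as separate observations. C4b, C3 and Serping1 varied with them too. Their correlations with C1qc within groups were 0.96, 0.80 and 0.51 without scrambled replicate 1. The counts of 5 and 6 members are therefore not counts of separate observations. That library was left out with its values known, and the labels give no reason to leave it out.

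Libraries also differed in the sex of the tissue. Xist, transcribed from the inactive X chromosome of females, read 0.0162 FPKM in scrambled replicate 1 and 0.109 FPKM in anti-miR-29a replicate 1, and 7.59 to 33.1 FPKM in the other 6 libraries, while Eif2s3y, a gene of the Y chromosome, read 4.93 to 13 FPKM in all 8. The 6 libraries thus held RNA of both sexes, and scrambled replicate 1 is 1 of 2 without Xist. The other, anti-miR-29a replicate 1, was the highest treated library for C3ar1 and for none of the other 8 members. Among the 6 libraries of both sexes, 3 per group, a comparison added after the values were seen, the same 5 members had every treated library above every control (10.5% of all rows). These 6 libraries also leave out scrambled replicate 1, so the separation of the 5 members was fixed by the result above and adds nothing to it. Of the 9 members 0 passed by limma after adjustment, and C1qa, C3 and Serping1 differed by 0.44, 1.78 and 0.78. Sex and the other features of scrambled replicate 1 cannot be told apart.

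**Figure D1:**
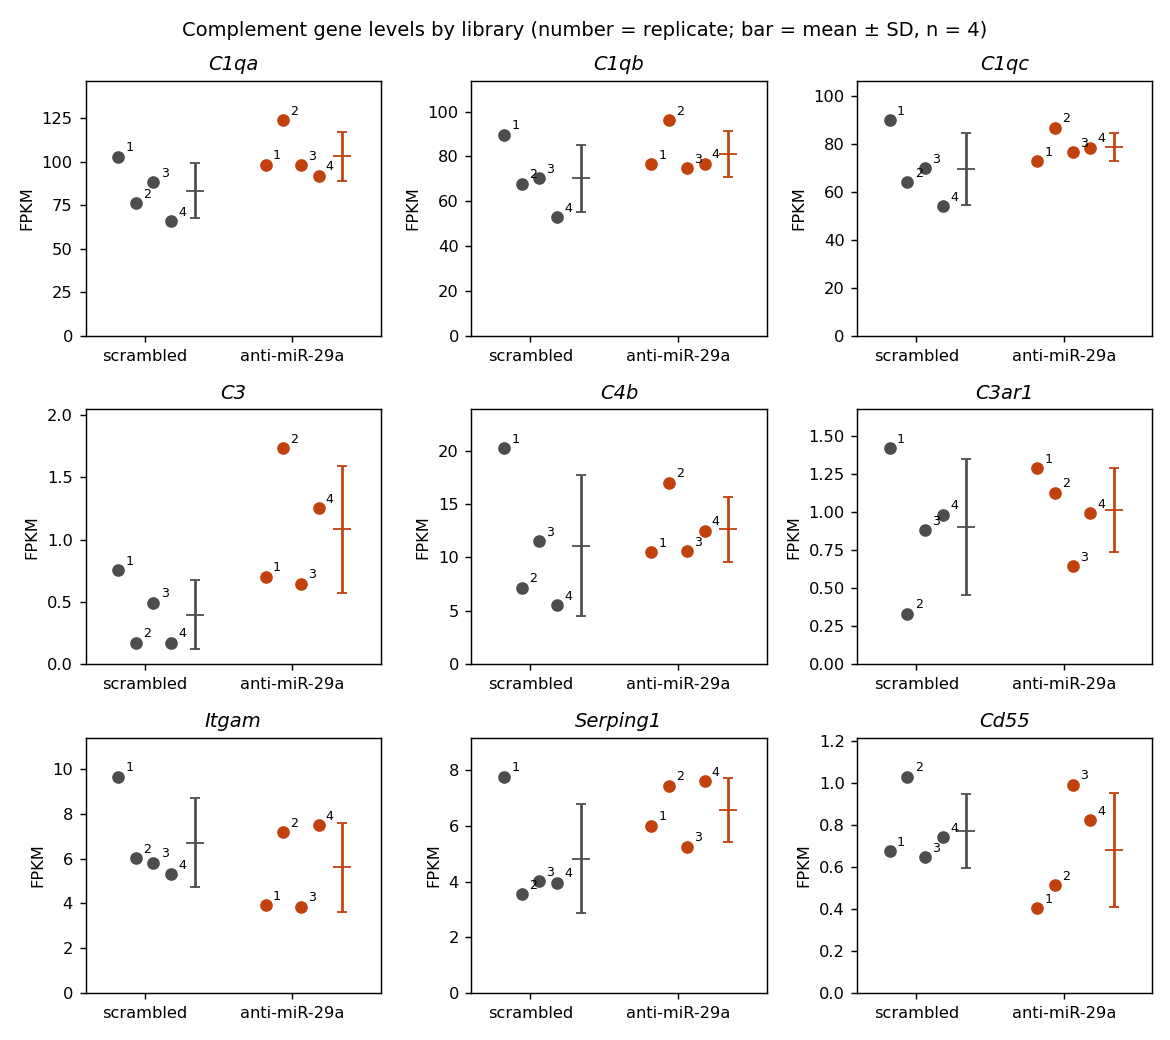
Level of each complement gene in FPKM (y axis, from 0) in the 4 scrambled and the 4 anti-miR-29a libraries (x axis), with the replicate number beside each point and the mean ± SD at the right of each group. Scrambled replicate 1 is the highest scrambled point in every panel but that of Cd55, and the groups overlap in all 9 panels.

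The C1q genes were the most abundant members. They lie beside each other on the minus strand of chromosome 4 (mm10), C1qb at 136880129 to 136886187, C1qc at 136889804 to 136893065 and C1qa at 136895917 to 136898803, within 18675 bp. C1qa, the A chain, read 103, 76.3, 88.2 and 66.0 FPKM in scrambled replicates 1 to 4 and 98.2, 124, 98.0 and 91.9 FPKM in anti-miR-29a replicates 1 to 4. Scrambled replicate 1 lay above 3 of the 4 anti-miR-29a libraries, and the other scrambled libraries lay below all of them. The means were 83.5 ± 16.1 and 103 ± 14.1 FPKM (SD, n = 4 per group), a log2 difference of 0.31 (standard error 0.13; limma, adjusted p = 0.447; exact two-sided permutation p = 0.171).

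C1qb, the B chain, read 89.7, 67.8, 70.4 and 53.0 FPKM in scrambled and 76.5, 96.3, 74.9 and 76.8 FPKM in anti-miR-29a libraries. For C1qc, the C chain, the values were 89.9, 64.1, 69.9 and 54.1 FPKM and 72.8, 86.6, 76.4 and 78.3 FPKM. In both genes scrambled replicate 1 stood among or above the anti-miR-29a libraries and scrambled replicate 4 was the lowest of the 8. On the log2 scale they were 0.23 and 0.20 higher in the treated group, with standard errors of 0.14 and 0.13, and neither passed (limma, adjusted p = 0.609 and 0.624). Without scrambled replicate 1 the differences of C1qa, C1qb and C1qc were 0.42, 0.35 and 0.33 (limma, adjusted p = 0.288, 0.369 and 0.279), with an exact permutation p of 0.0571 each, the smallest that 35 relabellings allow. Without scrambled replicate 4 they were 0.21, 0.10 and 0.09, and after removal of a trend with GC content and transcript length within each library 0.19, 0.10 and 0.07.

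The chains kept nearly the same proportions in every library. Per length, C1qb was 0.764 to 0.889 of C1qa and C1qc was 0.701 to 0.869 of C1qa, ratios that varied 1.16-fold and 1.24-fold over the 8 libraries, while the level of C1qb itself varied 1.82-fold and that of C1qc 1.66-fold. The C1qc ratio was 0.830 ± 0.0323 in the scrambled and 0.769 ± 0.0647 in the anti-miR-29a libraries (SD, n = 4 per group), and the groups overlapped.

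Promoters of C1qb and C1qc are shown because the 2 genes varied together. Each runs from 250 bases before to 50 bases after the start of the gene as RefSeq has it (GRCm38.p6), on the minus strand, at chr4:136886151-136886450 for C1qb and chr4:136892865-136893164 for C1qc.
C1qb: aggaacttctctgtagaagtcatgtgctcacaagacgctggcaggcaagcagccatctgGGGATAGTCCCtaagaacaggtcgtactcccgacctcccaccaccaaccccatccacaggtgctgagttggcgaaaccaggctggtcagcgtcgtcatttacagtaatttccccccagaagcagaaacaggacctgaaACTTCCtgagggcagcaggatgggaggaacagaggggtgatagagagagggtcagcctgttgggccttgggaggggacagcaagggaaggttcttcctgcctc
C1qc: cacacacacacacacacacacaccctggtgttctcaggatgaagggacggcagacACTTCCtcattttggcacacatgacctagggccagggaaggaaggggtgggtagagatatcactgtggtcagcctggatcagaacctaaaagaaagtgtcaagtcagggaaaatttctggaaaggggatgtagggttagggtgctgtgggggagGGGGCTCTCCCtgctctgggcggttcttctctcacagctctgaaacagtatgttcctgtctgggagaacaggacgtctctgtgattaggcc
Capitals mark matches to GGAAGT, a core bound by ETS factors such as the myeloid factor PU.1, here read as ACTTCC on the other strand, and matches to a loose NF-kB pattern of GGG, any 5 bases and CC, both searched on both strands, with overlapping matches of the 2 strands joined. GGAAGT was in both of these promoters and in 23.8% of all 32851 promoters, and the loose pattern in both and in 50.8%. Of the 9 members 6 had a promoter in the table (C1qb, C1qc, C3, C3ar1, Itgam and Cd55). The loose pattern was in all 6 and GGAAGT in the C1q pair only. TTCNNNGAA, the pattern of STAT factors, and GAAA, any 2 bases and GAAA, an interferon response pattern, were in none of the 6 and in 8.3% and 3.44% of all promoters.

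C3, the central component on which all pathways meet, had the largest difference of the 9 at a very low level. It read 0.753, 0.175, 0.496 and 0.175 FPKM in scrambled and 0.703, 1.73, 0.645 and 1.25 FPKM in anti-miR-29a libraries. Scrambled replicate 1 was above anti-miR-29a replicates 1 and 3, and the other 3 scrambled libraries were below all of the treated ones. The mean was 0.400 ± 0.280 FPKM in scrambled libraries, under the filter value, and 1.08 ± 0.511 FPKM in anti-miR-29a libraries (SD, n = 4 per group), so C3 met the filter only through the latter. Its log2 difference was 1.32 (standard error 0.48; limma, adjusted p = 0.375; exact permutation p = 0.0857), and 1.63 without scrambled replicate 1 (limma, adjusted p = 0.279; exact permutation p = 0.0571). With a pseudocount of 1 in place of 0.1 the difference was 0.56, so its size is not firm. The gene lies on chromosome 17 at 57203970 to 57228136 (mm10, minus strand).

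C4b, the mouse C4 that enters the classical and lectin pathways, was the most abundant member after C1q. It read 20.2, 7.17, 11.5 and 5.54 FPKM in scrambled and 10.5, 17.0, 10.6 and 12.5 FPKM in anti-miR-29a libraries. Scrambled replicate 1 was the highest of the 8 and scrambled replicate 4 the lowest, so the controls spanned the whole range of the treated libraries. The log2 difference was 0.33 (standard error 0.34; limma, adjusted p = 0.765; exact permutation p = 0.514). It was 0.68 without scrambled replicate 1 (limma, adjusted p = 0.403), 0.06 without scrambled replicate 4, 0.19 without scrambled replicate 2 and 0.18 without anti-miR-29a replicate 2. C4b lies on chromosome 17 at 34728380 to 34743882 (mm10, minus strand), and reads may be split between it and its close copy C4a. C4a read 0.711 ± 0.303 and 0.779 ± 0.192 FPKM, and C4b was 13.6 to 19.3 times as high as C4a per length in every library.

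Serping1 encodes the C1 inhibitor, a serpin that inactivates C1r and C1s, and after C3 it had the next largest difference. It read 7.76, 3.55, 4.02 and 3.96 FPKM in scrambled and 6.00, 7.44, 5.25 and 7.61 FPKM in anti-miR-29a libraries. Scrambled replicate 1 was the highest of all 8 libraries, while the other 3 scrambled libraries lay close together and below every treated one. The means were 4.82 ± 1.97 and 6.58 ± 1.14 FPKM (SD, n = 4 per group), with a log2 difference of 0.50 (standard error 0.23; limma, adjusted p = 0.481; exact permutation p = 0.143). Without scrambled replicate 1 the control mean was 3.84 ± 0.253 FPKM (SD, n = 3), the log2 difference 0.75 and its standard error 0.15, the smallest unadjusted p among the members, but not past the threshold (limma, adjusted p = 0.225; p = 0.0571 by exact permutation). The gene is on chromosome 2 at 84765387 to 84775444 (mm10, minus strand).

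**Figure D2:**
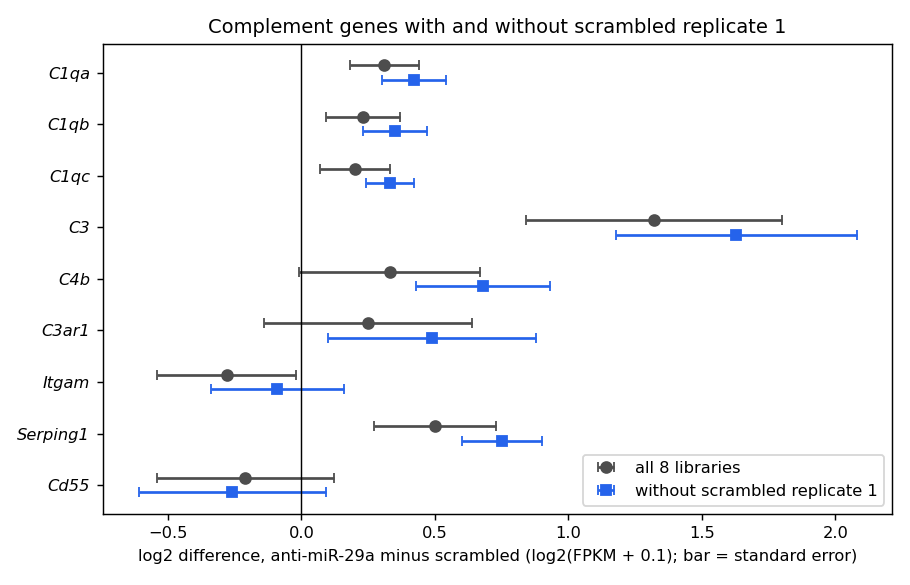
Difference between anti-miR-29a and scrambled libraries on the log2(FPKM + 0.1) scale (x axis) for each complement gene (y axis), from all 8 libraries (circles) and without scrambled replicate 1 (squares), with bars of 1 standard error. Leaving the library out moves Serping1 from 0.50 to 0.75 and C4b from 0.33 to 0.68, and no gene passes after adjustment in either fit.

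Cd55 encodes decay-accelerating factor, a membrane protein that breaks up the enzymes that cut C3. It read 0.675, 1.03, 0.646 and 0.742 FPKM in scrambled and 0.403, 0.513, 0.993 and 0.822 FPKM in anti-miR-29a libraries. Anti-miR-29a replicates 1 and 2 were the lowest of the 8, replicates 3 and 4 of that group lay within the scrambled range, and scrambled replicate 1 was not the highest control. The log2 difference was -0.21 (standard error 0.33; limma, adjusted p = 0.849), -0.39 without anti-miR-29a replicate 3 and -0.02 without anti-miR-29a replicate 1. Its gene on chromosome 1, at 130439027 to 130462744 (mm10, minus strand), overlaps the antisense gene Gm16083 by 169 bases, and the library kit does not mark strand, so reads there cannot be told apart.

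The receptors showed no firm difference. Itgam, the alpha subunit of complement receptor 3 (CD11b), read 9.66, 6.03, 5.82 and 5.32 FPKM in scrambled and 3.91, 7.19, 3.86 and 7.5 FPKM in anti-miR-29a libraries. The treated libraries fell at 2 levels, replicates 1 and 3 below every control and replicates 2 and 4 above all controls but scrambled replicate 1. The log2 difference was -0.28 (standard error 0.26; limma, adjusted p = 0.734) and -0.09 without scrambled replicate 1. Its sign is not firm, since it was 0.05 among the 6 libraries of both sexes. It was -0.13 without anti-miR-29a replicate 1 or 3 and -0.44 without anti-miR-29a replicate 4. Itgam, on chromosome 7 at 128062640 to 128118491 (mm10, plus strand), overlaps the annotated gene Gm49368 on the same strand by 55809 bases, and how reads were divided there is not given in the sources used here.

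Itgb2, the beta subunit that pairs with Itgam and with Itgax, read 3.99, 2.59, 3.71 and 2.65 FPKM in scrambled and 2.04, 3.56, 2.99 and 3.26 FPKM in anti-miR-29a libraries. Anti-miR-29a replicate 1 was the lowest library, and scrambled replicate 1 the highest as for Itgam. The ratio of Itgam to Itgb2 was 2.08 ± 0.384 and 1.88 ± 0.426 (SD, n = 4 per group). C3ar1, the receptor of the C3a fragment, read 1.42, 0.333, 0.884 and 0.984 FPKM in scrambled and 1.29, 1.13, 0.647 and 0.995 FPKM in anti-miR-29a libraries. Both groups covered much the same range, with scrambled replicate 2 apart at the low end. Its log2 difference was 0.25 (standard error 0.39; limma, adjusted p = 0.848), 0.49 without scrambled replicate 1, 0.43 without anti-miR-29a replicate 3 and -0.11 without scrambled replicate 2, so its direction is not firm. C3ar1 lies on chromosome 6 at 122847138 to 122856161 (mm10, minus strand).

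By level, the members fell into 3 tiers that did not overlap. C1qa, C1qb and C1qc had means of 93.2, 75.7 and 74.0 FPKM over the 8 libraries, and their ranges overlapped. C4b, Itgam and Serping1 followed at 11.9, 6.16 and 5.70 FPKM, again with overlapping ranges. C3ar1, C3 and Cd55 stood lowest, at 0.960, 0.741 and 0.728 FPKM, with overlapping ranges. Of all tested rows 95.6% had a lower mean than C1qa and 4.55% a lower mean than Cd55.

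Other genes of the cascade gave the same outcome after adjustment, but they did not shift with scrambled replicate 1 as the members did. Of 53 further complement genes 23 met the filter, 30 did not, and 8 of these 30 were listed at 0 in every library (C4bp, C9, Cd55b, Cfd, Cpn2, Fcnb, Mbl1 and Mbl2). Among the 23 tested, 15 had a positive and 8 a negative difference, and the median was 0.06. An unadjusted p under 0.05 (limma) in either direction was found for 4, beside 10.7% of all rows, and 0 passed by limma after adjustment. Without scrambled replicate 1 again 15 were positive and the median was 0.05, where that of the 9 members went from 0.25 to 0.42. In the classical pathway C1ra, a C1r gene, read 1.55 ± 0.247 and 1.88 ± 0.257 FPKM and C1s1, a C1s gene, 0.909 ± 0.330 and 0.835 ± 0.143 FPKM (SD, n = 4 per group), and each has a close copy that may take some of its reads. C2, which completes the C3-cutting enzyme, was below the filter with a highest value of 0.681 FPKM.

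The lectin pathway had 2 tested genes, Masp1, a protease, at a log2 difference of -0.05 and Colec12, a collectin, at 0.13. Cfp, the alternative pathway stabiliser properdin, read 3.51, 3.45, 4.35 and 3.64 FPKM in scrambled and 5.0, 5.26, 4.53 and 3.80 FPKM in anti-miR-29a libraries. Replicate 4 of the treated group lay within the control range and the other 3 above it (log2 difference 0.30, limma, adjusted p = 0.447). Of the terminal components that form the membrane pore, C7 and C8g were tested, with log2 differences of 0.72 and 0.37 and standard errors of 0.56 and 0.68. The scrambled mean of C7, 0.375 FPKM, lay under the filter value, and that of C8g, 0.534 FPKM, just above it. A further tested gene, a regulator, also had a scrambled mean under the filter value, at 0.407 FPKM. The places of C7 and of that regulator among the tested genes are therefore partly set by the filter. Hc, C6, C8a and C8b did not exceed 0.142 FPKM in any library. Among receptors Cd93, once described as a C1q receptor, differed by 0.03, and Itgax, the alpha subunit of complement receptor 4, stayed at or below 0.614 FPKM.

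Regulators held the genes with the smallest p of this wider list. Clu, the terminal pathway inhibitor clusterin, read 653, 524, 613 and 522 FPKM in scrambled and 601, 781, 664 and 687 FPKM in anti-miR-29a libraries (log2 difference 0.24, limma, adjusted p = 0.391). Vtn, vitronectin, which also blocks the terminal complex, differed by 0.25 (limma, adjusted p = 0.39). Sez6, a neuronal membrane protein with complement control domains, read 48.4, 43.5, 49.3 and 48.8 FPKM in scrambled and 40.0, 39.1, 46.3 and 39.6 FPKM in anti-miR-29a libraries, a difference of -0.20 (limma, adjusted p = 0.337). In each of these 3 genes the groups overlapped at 1 library of a group or more. Cr1l (Crry), the main membrane regulator of C3 in rodents, read 5.83 ± 0.497 and 5.83 ± 0.735 FPKM, and Cd59a, which blocks the membrane pore, 1.85 ± 0.701 and 1.86 ± 0.671 FPKM (SD, n = 4 per group). Csmd1, Csmd2, Csmd3, Susd4, Sez6l and Sez6l2, neuronal genes with the same kind of domain, differed by -0.12 to 0.09.

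Markers of the cells that make complement were read in the same libraries. In bulk tissue, fewer cells of a type and less RNA per cell cannot be told apart. All 12 homeostatic microglia markers were tested, 5 with a positive and 7 with a negative difference, with a median of -0.04, and 0 of them passed by limma (0 also at an unadjusted p under 0.05). Without scrambled replicate 1, 9 of the 12 were positive and the median was 0.12. Their summed level was 136 to 192 FPKM in scrambled and 127 to 176 FPKM in anti-miR-29a libraries, and scrambled replicate 1 held the highest sum. The 4 of smallest p were Sall1 and P2ry12, which differed by -0.27 and -0.24, and Fcrls and Olfml3, at 0.36 and 0.10.

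Reactive astrocyte markers, like some other marker lists, ranked the scrambled libraries as C4b did, and C1qa, C1qb and C1qc ranked them in the same order. Of 10 listed markers 9 were tested, all 9 with a positive difference, as had 56.6% of all rows, and a median of 0.53. At an unadjusted p under 0.05, 3 were higher, beside 7.54% of all rows, and 0 passed by limma after adjustment. Their summed level was 351, 155, 292 and 152 FPKM in scrambled and 233, 529, 308 and 390 FPKM in anti-miR-29a libraries. As for C4b, scrambled replicates 2 and 4 held the lowest sums and scrambled replicate 1 the highest control sum. Anti-miR-29a replicates 2 and 4 lay above scrambled replicate 1, which was not so for C4b. Gfap, the astrocyte filament gene, read 169 ± 70.1 and 275 ± 98.8 FPKM, and Aspg and Cd44 differed by 0.85 and 1.12. Of the 7 general astrocyte markers 3 had a positive and 4 a negative difference, with a median of 0.00 to 2 decimals (6 positive and a median of 0.03 without scrambled replicate 1) and sums of 730 to 769 and 683 to 817 FPKM. The order of the scrambled libraries was not particular to reactive astrocytes. General astrocyte sums of 769, 746, 752 and 730 FPKM in scrambled replicates 1 to 4 gave it too. So did oligodendrocyte sums of 1565, 968, 1102 and 758 FPKM. The part of reactive astrocytes in the complement values was not tested.

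Lists of other cell types are given for the same reason. Oligodendrocyte markers summed to 758 to 1565 FPKM in scrambled and 847 to 1130 FPKM in anti-miR-29a libraries, the highest again in scrambled replicate 1, with all 5 differences negative and a median of -0.18 that was 0.03 without that library. Meningeal fibroblast markers had 7 of 8 tested differences positive, a median of 0.50 and sums of 16.1 to 30.0 and 23.3 to 44.4 FPKM. At an unadjusted p under 0.05 (limma), 3 of these 8 were higher (Fmod, Col1a1 and Slc6a13), beside 7.54% of all rows. Their shift was thus much like that of the reactive astrocyte markers. Endothelial markers had 4 of 6 positive, a median of 0.15 and sums of 68.4 to 93.4 and 86.5 to 94.4 FPKM.

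Border or infiltrating macrophage markers, which bear on C1q and Itgam as well, had 3 of 9 tested, 2 of them positive, a median of 0.48 and sums of 8.47 to 19.7 and 10.8 to 27.8 FPKM. Ms4a7, a macrophage gene, read 0.219, 0, 0 and 0.168 FPKM in scrambled and 1.11, 1.51, 0.666 and 0.601 FPKM in anti-miR-29a libraries. Its scrambled mean lay under the filter value and the treated group alone brought it in, so these values are a description. With no filter on low values the median of the list was -0.14, so its direction is not firm. Neutrophil markers were near the floor, with 1 of the 7 in the table tested (S100a8), sums of 0.574 to 2.89 and 0.254 to 3.72 FPKM, and Retnlg at 0 throughout. Blood rows, haemoglobins and Alas2, had 4 of 6 positive, a median of 0.86 and sums of 112 to 250 and 176 to 252 FPKM. Neuron markers had 2 of 6 positive, a median of -0.02 and sums of 2854 to 3017 and 2760 to 3047 FPKM. No gene of these lists passed by limma after adjustment, and the part of these cells in the complement values was not tested.

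**Figure D3:**
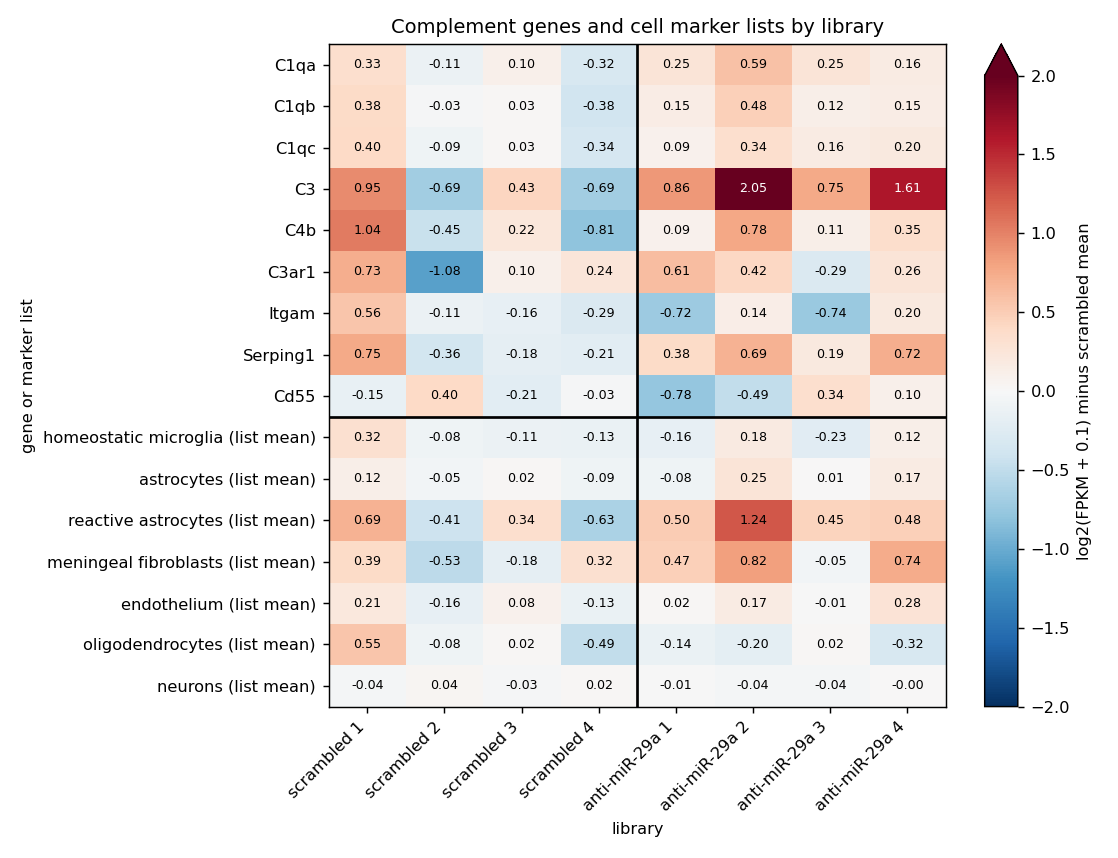
Log2(FPKM + 0.1) in each library (columns) minus the mean of the 4 scrambled libraries, for the 9 complement genes and the mean over 7 lists of cell markers (rows). C4b stands at 1.04 in scrambled replicate 1 and -0.81 in scrambled replicate 4, beside 0.69 and -0.63 for reactive astrocyte markers and 0.32 and -0.13 for homeostatic microglia markers. Oligodendrocyte markers stand at 0.55 and -0.49 and C1qa at 0.33 and -0.32 in the same libraries.

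Members were also read against the markers of a possible source within each library. C1qa minus the mean of the 12 homeostatic microglia markers, on the log2 scale, was 3.19, 3.15, 3.39 and 3.00 in the scrambled and 3.60, 3.59, 3.66 and 3.22 in the anti-miR-29a libraries. Only anti-miR-29a replicate 4 lay within the scrambled range, and scrambled replicate 1 no longer stood out. The means differed by 0.33, and by 0.34 without scrambled replicate 1, and the corresponding values for C1qb were 0.25 and 0.27 and for C1qc 0.22 and 0.25.

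For C3 the same quantity was -3.73, -4.97, -3.82 and -4.91 in the scrambled and -3.34, -2.49, -3.38 and -2.86 in the anti-miR-29a libraries, and the groups did not overlap. C3 was the only one of the 9 members of which this held with all 8 libraries. It had met the filter only through the treated libraries, and the share of all rows that separate on such a measure was not computed. C3 RNA is also found in astrocytes and other cells, so microglia markers are a choice of reference. Itgam, read against the same markers, had means of -0.46 ± 0.17 and -0.71 ± 0.33 (SD, n = 4 per group), a difference of -0.26, while C3ar1 differed by 0.27, and in both the groups overlapped.

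Against 7 astrocyte markers, Serping1 was -2.93, -3.87, -3.77 and -3.69 in the scrambled and -3.11, -3.12, -3.38 and -3.01 in the anti-miR-29a libraries, so scrambled replicate 1 remained the highest of the 8. C4b differed by 0.25 on this measure, by 0.56 without scrambled replicate 1, and Cd55 by -0.29. Astrocyte markers, too, are a choice of reference for Serping1, C4b and Cd55, and these genes were not read against other cell types. These differences are descriptions, and no test was run on them.

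**Figure D4:**
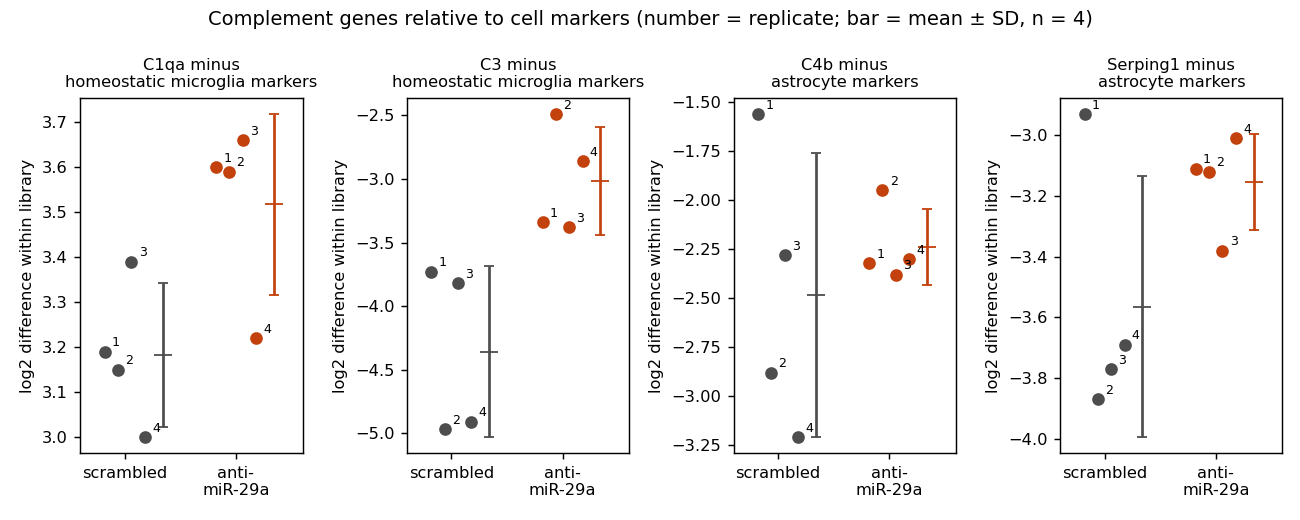
Level of C1qa and C3 relative to homeostatic microglia markers and of C4b and Serping1 relative to astrocyte markers (y axis, difference of log2(FPKM + 0.1) values within a library) in scrambled and anti-miR-29a libraries (x axis), with replicate numbers and mean ± SD. Scrambled replicate 1 lies within its group for C1qa at 3.19 and is the highest library for C4b at -1.56 and Serping1 at -2.93.

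Rows that followed the members most closely were found by Pearson correlation of values centred on the group mean, over 8 libraries and 12709 rows with a mean of at least 1 FPKM. Efemp2, an elastic fibre gene, was most like the mean of the 3 C1q genes (r = 0.979, Spearman rho = 0.833), and r was 0.923 without the 2 libraries farthest from the median, scrambled replicate 1 and anti-miR-29a replicate 2. Gng5, Slc38a2, Fth1 and Igtp came next, with r of 0.966, 0.957, 0.955 and 0.955. Fcgr2b, the inhibitory Fc receptor, was most like C4b (r = 0.988, rho = 0.976; 0.950 without scrambled replicates 1 and 4), followed by Clic4, Irgm1, Efemp2 and Slc8b1 with r of 0.975, 0.970, 0.968 and 0.963.

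The members themselves were alike to different degrees on the same measure. C4b followed C1qa, C1qb and C1qc with r of 0.93, 0.94 and 0.98, and of 0.90, 0.90 and 0.96 without scrambled replicate 1. For C4b and Serping1 r was 0.84, and 0.62 without that library. Cd55 had a negative r with each of the others, from -0.74 with C3ar1 to -0.05 with Itgam. Without scrambled replicate 1 these were -0.78 and 0.04, and r with C1qc went from -0.17 to -0.07. An opposite course of Cd55 is therefore not firm. Centring removed the difference between the groups, but not differences in tissue composition among the libraries of a group. These correlations rest on 8 libraries and were picked from many, so they are descriptions with no test.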

How the data were processed

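RNA-seq of visual cortex was read from the deposited table of FPKM, which the authors made with CASAVA 1.8.2, Bowtie and Cuffnorm on build mm10, per the submitters' processing notes. Not given in the sources used here are the order of steps, the annotation, filters and scaling. Read counts and total depth were not used. From the spacing of low values, depths were 0.973 to 1.15 relative to scrambled replicate 1, and 12538 to 12769 rows reached 1 FPKM per library. FPKM give no counting error, so the spread between samples is the only error stated.

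Rows with a mean of at least 0.5 FPKM were fitted as log2(FPKM + 0.1) with limma 3.58.1 in R 4.3.3 (group as the only term, variance trend, two-sided, Benjamini-Hochberg over all 13912 rows, threshold 0.05). The scale understates changes of low genes. The fit was tested on simulated data. Single members were also tested by exact two-sided permutation (scipy 1.17.1) over 70 relabellings, smallest p 0.0286, or 35 without scrambled replicate 1, smallest p 0.0571. The 9 members and all lists were chosen with earlier results of these data known. Genes named are the members, the tested complement genes, up to 4 of smallest p per marker list and the 5 rows most like C1q and C4b, while other names were chosen after their values were seen. A gene of the wider complement list is not reported here by name.

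Positions, 3' UTRs (longest among protein-coding transcripts) and transcript lengths came from GENCODE M21 (the assembly of mm10), promoters and microRNAs from RefSeq (GRCm38.p6). Alternatives were other pseudocounts, filters, scalings, weights and variance models, a replicate block, each library left out in turn, transcripts of at least 200 nt only, the 6 libraries of both sexes only, and a length and GC trend removed.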

Additional observations from a re-analysis of the deposited data

Results flagged for a closer look

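In 27 complement genes, the 9 members and the 18 further ones that averaged 1 FPKM or more, each group of 4 libraries was screened for a highest or lowest library far from the other 3 by Dixon's criterion. Of 54 groups 10 were marked, and chance marks about 5% of such groups. Serping1 in scrambled replicate 1, at 7.76 FPKM, stood above 3.55 to 4.02 FPKM in the other scrambled libraries. Itgam in the same library stood at 9.66 FPKM, above 5.32 to 6.03 FPKM. C1qb in anti-miR-29a replicate 2 stood at 96.3 FPKM, above 74.9 to 76.8 FPKM.

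Among the further genes, C1ra stood at 2.26 FPKM in anti-miR-29a replicate 4, above 1.72 to 1.79 FPKM. Susd4 was high at 42.6 FPKM in scrambled replicate 4 and at 45.7 FPKM in anti-miR-29a replicate 2. Sez6 was low at 43.5 FPKM in scrambled replicate 2 and high at 46.3 FPKM in anti-miR-29a replicate 3. Csmd1 was low at 5.86 FPKM in scrambled replicate 2, and Sez6l at 41.9 FPKM in anti-miR-29a replicate 2.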

How the results depend on the processing

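No complement member was called under any of the alternatives tried, with adjusted p from 0.225 to 0.989 (limma), and every member kept its direction except C3ar1 and Itgam. C3ar1 stood at -0.11 without scrambled replicate 2 (adjusted p = 0.945) and at 0.49 without scrambled replicate 1, and Itgam at 0.05 with the 6 libraries of both sexes only, an alternative added after the data were seen (adjusted p = 0.955). Over their alternatives C1qa ranged from 0.19 to 0.44, C3 from 0.56 to 1.78, C4b from 0.06 to 0.76 and Serping1 from 0.37 to 0.78. The number of members whose groups did not overlap was 5 without scrambled replicate 1 and 0 without any other single library. It was also 5 with the 6 libraries of both sexes, which leave out scrambled replicate 1 as well, so this second count followed from the first. The number of rows called over all tested rows was 2, and it was 10 with robust empirical Bayes, 1 with no filter, 1 with a mean of at least 5 FPKM, 1 with the length and GC trend removed and 1 to 3 with a library left out. It was 0 with transcripts of at least 200 nt only (1462 rows at an unadjusted p under 0.05). With the replicate block limma called 0 rows (1476 at an unadjusted p under 0.05), and C3, C1qa and Serping1 had an adjusted p of 0.472, 0.441 and 0.506. Libraries of the same number did not deviate together, with correlations of -0.086, 0.014, -0.106 and -0.097, so the numbers were not taken as pairs. The cause of these shifts was not tested. C3, C3ar1 and Cd55 did not meet the filter of 5 FPKM. Values under about 1 FPKM, as for these 3 genes, are the least precise.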

Other observations

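Within-library ratios were computed for 7 pairs of complement genes, chosen after values had been seen, and in 1 of them the groups did not overlap. C3 per C4b was 0.0372, 0.0244, 0.0433 and 0.0316 in the scrambled and 0.0673, 0.102, 0.0607 and 0.10 in the anti-miR-29a libraries, with means of 0.0341 ± 0.00804 and 0.0826 ± 0.0216 (SD, n = 4 per group). Scrambled replicate 1, which had the highest C4b level of the 8 libraries, stood within its group on this ratio. C3 is a low gene that met the filter only through the treated libraries, and the share of all gene pairs that separate was not computed. The pair was picked from these data, so the ratio is a description with no test. C4b per C1qa, by comparison, was 0.126 ± 0.0505 and 0.122 ± 0.0169 (SD, n = 4 per group).

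Igtp and Irgm1, interferon-inducible GTPase genes that were among the rows most like C1q and C4b, were both highest in scrambled replicate 1. Igtp read 11.5, 5.05, 4.40 and 2.10 FPKM in scrambled and 2.64, 4.93, 2.94 and 3.45 FPKM in anti-miR-29a libraries. For Irgm1 the values were 13.3, 5.04, 7.38 and 4.02 FPKM and 5.17, 6.08, 5.08 and 5.99 FPKM. Neither passed (limma, adjusted p = 0.704 and 0.791).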
